A study of Mus musculus with 12 samples.

Results

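The Itgav knockout was compared with control as the mean of its effects in 2 T helper subsets, TH2 and TH1, so that each subset counts equally and the change common to them is described. All 12 libraries of the series entered, and the contrast was (TH2 Itgav-KO − TH2 control + TH1 Itgav-KO − TH1 control)/2 on log2 of CPM (read counts scaled to the size of each library) plus 1. Of 26202 gene symbols listed, 9121 reached 10 CPM in 3 or more libraries and were tested. The groups were TH2 Itgav-KO, TH2 control, TH1 Itgav-KO and TH1 control, with 3 libraries each, from naïve CD4+ T cells of mouse spleen that were polarised in culture for 5 days and then sorted as live CD4+ cells. All donors carried Cd4 CreERT2, a tamoxifen-dependent Cre recombinase used for deletion in T cells. The KO donors carried in addition a conditional (floxed) Itgav allele, and the strains were on a C57BL/6 background. The sources used here give no ages, nor do they say whether the sequenced cultures of either genotype received tamoxifen or whether cells were gated on αv. Itgav is counted over its whole gene, exons that deletion leaves in place included. Since no label ties a library to a mouse or a culture, p-values reflect only how far these libraries scatter, which may be technical.

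Itgav encodes the integrin αv chain, which pairs with β chains such as β3 (Itgb3) to bind ligands that carry an RGD motif. Integrins pass signals through talin, kindlin and focal adhesion kinase towards the PI3K and Ras pathways, and in T cells they act beside the T cell receptor (TCR). TCR signalling switches on immediate early genes, among them the Egr and Nr4a transcription factors, within a short time and without new protein synthesis. The cytokines IL-13, IL-5 and IL-4 of TH2 cells depend on the transcription factor GATA3, whereas TH1 cells make interferon-γ under T-bet.

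The libraries held 6344185 to 13312233 reads in genes, and 3 reads corresponded to 0.225 to 0.473 CPM. Cd4 lay between 2041 and 3521 CPM and Cd3e between 302 and 437 CPM in all libraries, and Gata3 and Tbx21 separated the subsets. Cd8a did not exceed 1.79 CPM, while Cd8b1 lay between 3.44 and 17.65 CPM. NK and CD8 T cell markers summed to 3.58 to 17.65 CPM in TH2 libraries and to 105 to 144 CPM in TH1 libraries. Markers of B cells summed to at most 12.5 CPM, of myeloid and dendritic cells to at most 38.5 CPM and of mast cells and basophils to at most 1.85 CPM in any library. The 45S ribosomal precursor Rn45s reached 58367 CPM in TH2 control 1, against 7510 to 23034 CPM in the other 11 libraries, and on the first principal components TH2 control 1, TH2 control 2 and TH2 Itgav-KO 3 lay apart from their groups. In bulk samples such as these, fewer cells that express a gene and less RNA per cell cannot be told apart.

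The targeted gene was lower in every KO library. Itgav held 55.2, 43.5 and 60.5 CPM in TH2 Itgav-KO, against 249.6, 195 and 313 CPM in TH2 control libraries, and 42.8, 21.3 and 28.1 CPM in TH1 Itgav-KO, against 226.7, 228 and 154 CPM in TH1 control libraries. The groups were far apart in both subsets, and the average change was −2.47 ± 0.17 SE (adjusted p = 2.3e-08 in limma with Benjamini-Hochberg adjustment). The difference between its TH2 and TH1 effects, 0.50, was not called (adjusted p = 0.632). Itgav lies on chromosome 2 from 83724397 to 83806916 of GRCm38, on the plus strand.

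In the average, 385 of 9121 genes passed an adjusted p of 0.05 in limma and are referred to as called, which is 4.22% of those tested, and 1589 genes had an unadjusted p below 0.05. Of the 385, 199 genes (2.18%) were higher and 186 (2.04%) were lower in Itgav-KO cells. The median size of the called changes was 0.697 on the log2 scale, and 74 genes rose and 55 fell by 1 or more. The effects of TH2 and TH1 cells had the same sign in 373 of the 385 genes, a direction that the averaging favours. As a stricter description, 214 called genes (2.35%) showed no overlap between KO and control libraries in either subset and moved the same way, 106 of them higher (1.16%) and 108 lower (1.18%). These 214 genes are called alike below. The largest rises and falls named below were picked among them, so the lack of overlap in those genes follows from that choice. The change was larger in TH2 than in TH1 cells for 245 called genes and larger in TH1 for 140. Tested within a subset, the knockout effect was called for 327 genes in TH2 (3.59%) and 77 in TH1 cells (0.844%), and 154 of the 385 genes were called in neither subset on its own.

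**Figure D1:**
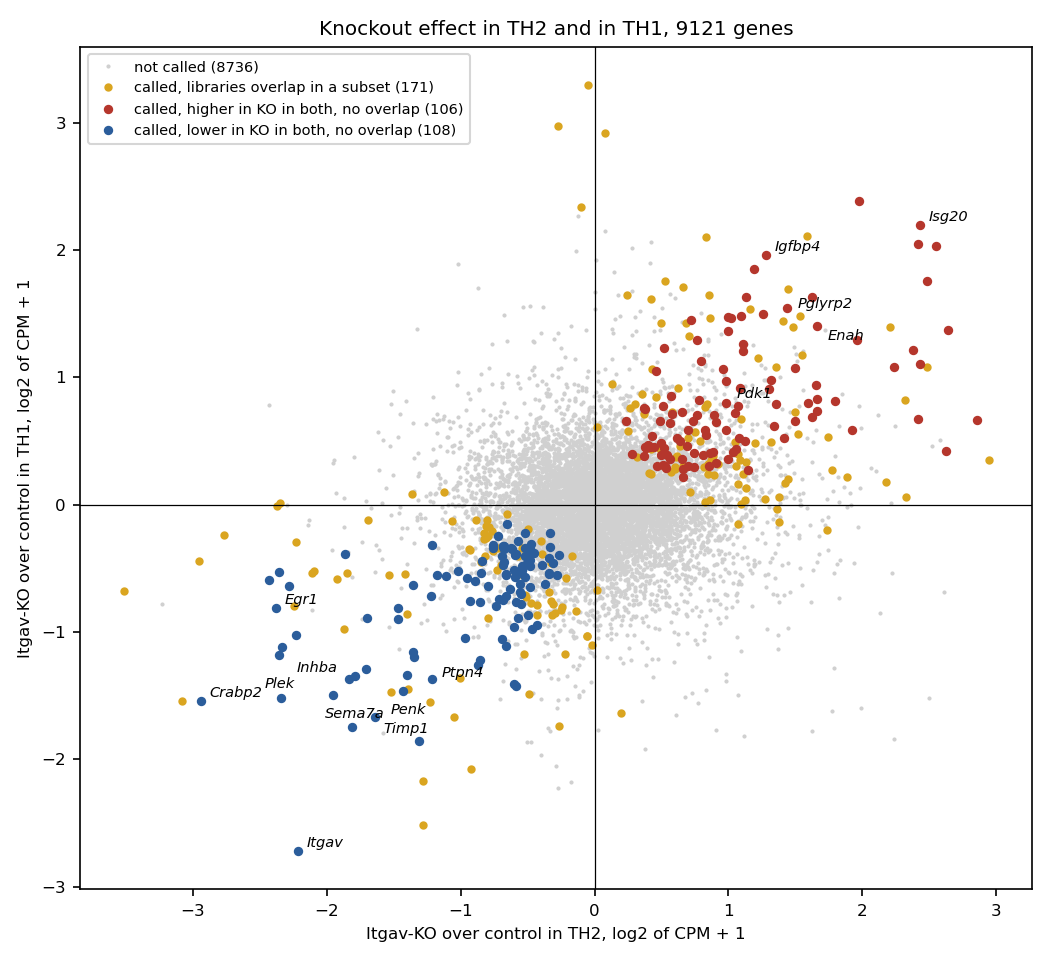
Knockout effect on each of the 9121 genes in TH2 cells (horizontal axis) and in TH1 cells (vertical axis), both as log2 of CPM + 1, Itgav-KO over control. Red and blue points are the 106 and 108 called genes with no overlap between libraries in either subset, gold points the other 171 called genes, and grey points genes not called. Itgav lies at −2.22 in TH2 and −2.72 in TH1, and Isg20 at 2.43 and 2.20.

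Over all tested genes the effects in TH2 and TH1 cells were only weakly related (Pearson r = 0.191, Spearman rho = 0.151), a description across genes that share libraries and are not independent replicates. The difference of the effects (TH2 minus TH1) was itself called for 37 genes (0.406%), 20 of them called in the average and 10 of these with opposite signs in the subsets. Of the 214 alike genes, 1 (Egr1) differed between the subsets by this test, beside 37 of all 9121 genes tested. The alike genes were chosen for moving the same way in both subsets. A few called genes were near absent from 1 subset: both group means were below 5 CPM in TH2 for 6 called genes and in TH1 for 3.

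When single libraries were left out, the count of called genes moved by over 1.5 times for 5 of the 6 TH1 libraries and for none of the TH2 libraries. It was 236, 179 and 227 without TH1 control 1, 2 or 3 and 216 and 194 without TH1 Itgav-KO 2 or 3, while it stayed between 297 and 432 when any other library was left out. The alike genes numbered 126 without TH1 control 2 and 143 to 253 otherwise.

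The most stringent core was small. Of the alike genes, 19 were called in the average and in each subset alone, 11 of them lower and 8 higher in Itgav-KO cells. Lower were Itgav, Crabp2, Plek, Sema7a, Timp1, Egr1, Inhba, Penk, Ptpn4, Tg and Srgn, and higher were Isg20, Igfbp4, Enah, Pglyrp2, Pdk1, Arl4c, Rasgrp1 and Ndufv3. Tg, Arl4c and Ndufv3 were singled out after their values were seen.

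Immediate early genes of TCR signalling held more falls than any other of the 38 lists, which differ in size. Of 31 listed, 28 were tested, 13 fell and none rose, beside 2.04% of all tested genes that fell and 2.18% that rose. Of the 13, 10 were alike, beside 214 of all 385 called genes. The count of called members was 9 to 13 with 1 library left out, lowest without TH1 control 2, and 5 without limma's variance trend. The median average change of the list was −0.50 (−0.62 in TH2, −0.50 in TH1), beside 0.02 over all genes tested. The Nr4a and Egr families held the 5 largest falls of the list, while Jun, Junb, Myc and Nfkbia were not called (0.10, −0.29, −0.27 and −0.19). The summed level of the list was 3928 to 4054 CPM in TH2 Itgav-KO, against 5138 to 5990 CPM in TH2 control libraries, and 3981 to 4345 CPM in TH1 Itgav-KO, against 5695 to 6012 CPM in TH1 control libraries.

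Egr1, a zinc-finger factor induced through the Ras and ERK pathway, held 84.0, 85.0 and 78.4 CPM in TH2 Itgav-KO, against 434, 517 and 359 CPM in TH2 control libraries. In TH1 cells it held 81.7, 128 and 109.5 CPM in TH1 Itgav-KO, against 174, 233 and 154 CPM in TH1 control libraries. Every KO library lay below every control library of its subset, and the average change was −1.59 ± 0.14 SE (adjusted p = 2.84e-07). The fall was larger in TH2 (−2.38) than in TH1 cells (−0.81), and that difference was called (−1.57, adjusted p = 0.0214). Egr3, a related factor that restrains T cell activation, held 18.02, 12.8 and 8.68 CPM in TH2 Itgav-KO, against 45.6, 80.7 and 67.8 CPM in TH2 control libraries, and 13.2, 36.7 and 19.8 CPM in TH1 Itgav-KO, against 48.4, 44.5 and 40.5 CPM in TH1 control libraries. Its groups did not overlap in either subset (average −1.63 ± 0.25 SE, adjusted p = 0.000695). Egr2, which acts with Egr3, was 21.8% of the control mean in TH2 and 40.3% in TH1 cells, where it stayed below 10 CPM in all libraries (average −1.72 ± 0.37 SE, adjusted p = 0.00985).

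The Nr4a family of orphan nuclear receptors follows TCR signal strength, and Nr4a1 (Nur77) is widely used as its reporter. Nr4a1 held 30.8, 21.4 and 39.5 CPM in TH2 Itgav-KO, against 72.5, 89.3 and 90.6 CPM in TH2 control libraries, and 89.4, 155 and 92.7 CPM in TH1 Itgav-KO, against 182, 222 and 207 CPM in TH1 control libraries. The groups were apart in both subsets, and the average fell by 1.18 ± 0.17 SE on the log2 scale (adjusted p = 0.000325). Nr4a3 held 9.61, 2.68 and 5.79 CPM in TH2 Itgav-KO, against 22.7, 42.2 and 33.8 CPM in TH2 control libraries, and 96.2, 112 and 98.9 CPM in TH1 Itgav-KO, against 214, 269 and 218 CPM in TH1 control libraries. It stood far higher in TH1 than in TH2 cells in both genotypes and its KO libraries lay under all control libraries in both subsets (average −1.77 ± 0.22 SE, adjusted p = 7.34e-05). Nr4a2, named after its values were seen, overlapped in TH2 cells, with 24.9, 22.7 and 11.4 CPM in TH2 Itgav-KO, against 38.0, 14.3 and 86.0 CPM in TH2 control libraries, but not in TH1 cells, with 67.7, 42.1 and 35.1 CPM in TH1 Itgav-KO, against 201.1, 172 and 229 CPM in TH1 control libraries (average −1.50 ± 0.30 SE, adjusted p = 0.00727).

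**Figure D2:**
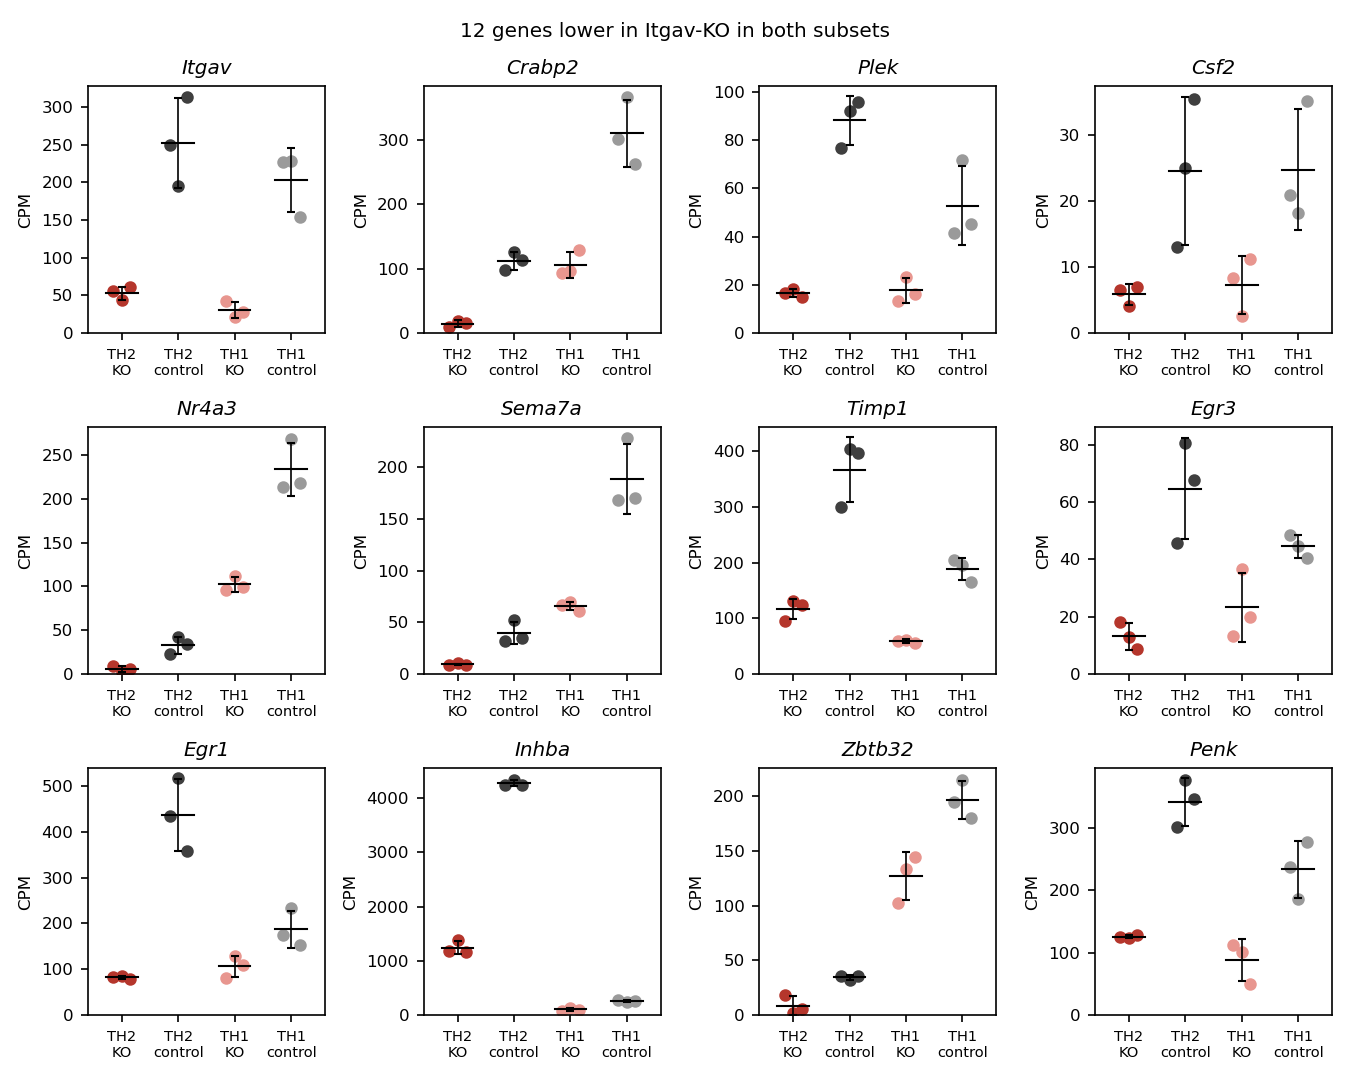
CPM of the 12 genes with the largest average falls among alike genes that averaged 20 CPM or more in the higher genotype of both subsets. Points are libraries (3 per group), horizontal bars group means and vertical bars SD, and the axis of each panel starts at 0. Inhba lay between 1162 and 1375 CPM in TH2 Itgav-KO, against 4235 to 4341 CPM in TH2 control libraries.

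Promoter sequences of immediate early genes that fell are shown where they hold the letters of 1 of 2 known motifs. RefSeq promoters (GRCm38.p6, the 250 bases before a start) were on hand for 7423 of the 9121 tested genes. The CArG box, the motif bound by serum response factor, lay before 99 of them (1.33%). It lay before 1 of 11 called immediate early genes with a promoter, Egr2, and before 2 of 12 that were not called. The motif GCGNGGGCG of the EGR factors themselves, searched on both strands, lay before 783 tested genes (10.5%), before 3 of those 11 and before 3 of 12 immediate early genes that were not called. The stretches are written 5′ to 3′ on the strand of the gene, with the matched letters in capitals, and include CArG boxes before 2 annotated starts of Egr2 and the EGR motif of Nr4a1, Nr4a2 and Dusp2. The AP-1 motif TGANTCA and the cAMP response element, searched in the same way, lay before none of the 11, and before 5.17% and 3.21% of tested genes. Among the 12 immediate early genes that were not called they lay before 1 and 3. Dusp2, a phosphatase of MAP kinases, was named after its values were seen (−0.71 ± 0.13 SE, adjusted p = 0.00342).
Egr2, chr10:67537479-67537518, plus strand: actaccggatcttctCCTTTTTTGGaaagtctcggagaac
Egr2, chr10:67537782-67537821, plus strand: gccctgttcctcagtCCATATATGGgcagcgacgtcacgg
Nr4a1, chr15:101266771-101266809, plus strand: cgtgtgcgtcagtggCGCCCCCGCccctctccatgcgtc
Nr4a2, chr2:57124054-57124092, minus strand: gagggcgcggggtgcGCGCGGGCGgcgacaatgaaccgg
Dusp2, chr2:127336046-127336084, plus strand: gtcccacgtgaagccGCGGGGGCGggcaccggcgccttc
A match describes letters in this window and no binding was measured.

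Several secreted and surface proteins were among the other falls named. Inhba, the βA chain of activin A, a TGF-β family hormone, held 1186, 1375 and 1162 CPM in TH2 Itgav-KO, against 4235, 4341 and 4245 CPM in TH2 control libraries. In TH1 cells it held 81.6, 130.2 and 95.6 CPM in TH1 Itgav-KO, against 269.8, 246 and 255 CPM in TH1 control libraries. The scatter between libraries was small beside the gap in both subsets, and its average change of −1.57 ± 0.10 SE had the smallest adjusted p of all named genes (5.96e-09). Timp1, an inhibitor of matrix metalloproteinases, held 95.5, 131 and 124 CPM in TH2 Itgav-KO, against 299, 404 and 397 CPM in TH2 control libraries, and 58.6, 62.0 and 55.2 CPM in TH1 Itgav-KO, against 204, 196 and 165 CPM in TH1 control libraries. It fell by nearly the same amount in TH2 (−1.64) and TH1 cells (−1.66), to 31.8% and 31.1% of the control mean. Penk, the precursor of enkephalin peptides, held 125, 123 and 128 CPM in TH2 Itgav-KO, against 301, 377 and 345 CPM in TH2 control libraries, and 112, 101 and 49.7 CPM in TH1 Itgav-KO, against 237, 186 and 276 CPM in TH1 control libraries. Here too the changes were close, −1.43 in TH2 and −1.46 in TH1 (average −1.45 ± 0.16 SE, adjusted p = 1.39e-05).

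Sema7a, a membrane-anchored semaphorin that binds β1 integrins, held 8.499, 10.2 and 9.09 CPM in TH2 Itgav-KO, against 32.3, 51.9 and 34.5 CPM in TH2 control libraries, and 66.8, 69.4 and 61.1 CPM in TH1 Itgav-KO, against 169, 228 and 170.5 CPM in TH1 control libraries. The average change was −1.72 ± 0.18 SE (adjusted p = 4.15e-06), with every KO library below its controls. Csf2, the cytokine GM-CSF, was low in all groups and held 6.47, 4.10 and 7.03 CPM in TH2 Itgav-KO, against 13.1, 25.0 and 35.5 CPM in TH2 control libraries, and 8.28, 2.53 and 11.2 CPM in TH1 Itgav-KO, against 20.9, 18.1 and 35.2 CPM in TH1 control libraries. Its KO libraries lay below the control libraries in both subsets (average −1.78 ± 0.35 SE, adjusted p = 0.00588). Il21, a cytokine of follicular helper cells, held 175, 218 and 242 CPM in TH2 Itgav-KO, against 283, 326 and 353 CPM in TH2 control libraries, and 89.1, 67.7 and 59.7 CPM in TH1 Itgav-KO, against 197, 174 and 199.9 CPM in TH1 control libraries. It fell in the average (−1.004 ± 0.12 SE, adjusted p = 4.99e-05), with 66.1% of the control mean in TH2 and 37.9% in TH1 cells. Srgn, the proteoglycan core of secretory granules, was among the most abundant falls. It held 2236, 1970.1 and 2295 CPM in TH2 Itgav-KO, against 2976, 3531 and 3577 CPM in TH2 control libraries, and 1767, 1751 and 1609 CPM in TH1 Itgav-KO, against 2604, 2664 and 2818 CPM in TH1 control libraries, which is 64.5% and 63.4% of the control means (average −0.64 ± 0.07 SE, adjusted p = 2.18e-05).

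Among intracellular proteins, Crabp2, which carries retinoic acid to its nuclear receptors, held 8.59, 19.4 and 15.01 CPM in TH2 Itgav-KO, against 97.6, 126 and 113 CPM in TH2 control libraries. In TH1 cells it held 92.5, 96.2 and 129 CPM in TH1 Itgav-KO, against 301, 366 and 263 CPM in TH1 control libraries. The range of TH1 Itgav-KO libraries overlapped that of TH2 control libraries, and the average change of −2.24 ± 0.17 SE was, after Itgav, the second largest of the 11 falls of the core. Plek (pleckstrin, a substrate of protein kinase C) held 16.6, 18.1 and 15.01 CPM in TH2 Itgav-KO, against 76.8, 92.0 and 95.7 CPM in TH2 control libraries, and 13.3, 23.4 and 16.4 CPM in TH1 Itgav-KO, against 41.7, 71.8 and 45.0 CPM in TH1 control libraries. The libraries were well apart in both subsets (average −1.93 ± 0.21 SE, adjusted p = 8.44e-06). Ptpn4, a tyrosine phosphatase, fell by 1.29 ± 0.18 SE on the log2 scale, with 42.9% of the control mean in TH2 and 37.7% in TH1. Zbtb32, a transcriptional repressor of activated T cells, and Cd80, a ligand of CD28 and CTLA-4 best known from antigen-presenting cells, fell by 1.46 and 1.44, and more of the change lay in TH2 cells (−2.29 and −2.36) than in TH1 cells (−0.64 and −0.52), although neither difference was called. The call of Cd80 was lost without TH1 control 2 (adjusted p = 0.0504).

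Tg, the thyroglobulin gene, held 342, 291 and 335 CPM in TH2 Itgav-KO, against 548, 437 and 458 CPM in TH2 control libraries, and 192, 234 and 254 CPM in TH1 Itgav-KO, against 450.3, 429.9 and 376 CPM in TH1 control libraries (average −0.73 ± 0.10 SE, adjusted p = 0.000198). Sla, which encodes a Src-like adaptor of T cells, lies within Tg on the opposite strand. As the sources used here do not say whether strand was counted, reads where the 2 genes overlap cannot be told apart, and Sla itself was listed at 116 to 224 CPM and was not called (0.08).

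Surface genes of activated T cells mostly had negative changes. Of 17 tested, 7 fell, beside 2.04% of all tested genes, and 1 rose, beside 2.18%. The gene that rose was Tnfrsf18, the receptor GITR, a call lost without any 1 of 5 libraries (adjusted p up to 0.0827). The list had a median of −0.28. Tfrc, the transferrin receptor of proliferating cells, held 135, 105 and 130.2 CPM in TH2 Itgav-KO, against 258, 277 and 301 CPM in TH2 control libraries, and 193, 146 and 174 CPM in TH1 Itgav-KO, against 234, 271 and 245 CPM in TH1 control libraries (average −0.86 ± 0.11 SE, adjusted p = 7.34e-05). Its groups were apart in both subsets. Inhibitory receptors fell as well: Ctla4 by 0.74 (adjusted p = 0.0122), Pdcd1 (PD-1) by 0.77 (0.0186), Lag3 by 1.33 (0.00153) and Havcr2 (TIM-3) by 1.51 (0.00546). For Lag3 and Havcr2 most of the change lay in TH2 cells, where Lag3 was 24.7% and Havcr2 14.9% of the control mean, against 69.7% and 67.7% in TH1 cells, although neither difference between the subsets was called (adjusted p = 0.145 and adjusted p = 0.221). Cd44, the hyaluronan receptor, named after its values were seen, held 257, 277 and 216 CPM in TH2 Itgav-KO, against 460.1, 336 and 311 CPM in TH2 control libraries, and 164, 182 and 187 CPM in TH1 Itgav-KO, against 284, 292 and 288 CPM in TH1 control libraries, and fell by 0.62 (adjusted p = 0.00233). Il2ra (CD25) overlapped in TH2 cells and fell by 0.28, a call that did not hold when any 1 of 7 libraries was left out (adjusted p up to 0.122), and Pdcd1 was lost without TH1 control 2 or TH1 Itgav-KO 3 (adjusted p up to 0.0626). Cd69, Icos, Tnfrsf4 and Cd28 were not called (−0.10, 0.32, 0.04 and −0.28). The count for the list was 5 without TH1 control 2 or TH1 Itgav-KO 3.

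Of 22 signalling components between the TCR and these genes, among them Cd3e, Lck, Zap70, Lat and Nfatc1, 1 was called, Rasgrp1. Over all tested genes the called share was 4.22%. The median change of the list was 0.08. Rasgrp1 is the diacylglycerol-activated exchange factor that links the TCR to Ras. It held 436, 414 and 413 CPM in TH2 Itgav-KO, against 283, 315 and 255 CPM in TH2 control libraries, and 428, 434 and 441 CPM in TH1 Itgav-KO, against 264, 225 and 232 CPM in TH1 control libraries, and rose in the average (0.71 ± 0.09 SE, adjusted p = 7.12e-05), as did its relative Rasgrp4 (1.18 ± 0.22 SE, adjusted p = 0.00342), which is better known from mast cells and held 81.3 to 91.7 CPM in TH2 Itgav-KO, against 33.3 to 57.4 CPM in TH2 control libraries, and 20.9 to 32.0 CPM in TH1 Itgav-KO, against 6.69 to 12.7 CPM in TH1 control libraries. Without TH2 control 1, 2 of the 22 components were called.

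Genes of the interferon response had mostly positive changes. Of 49 tested, 7 rose and none fell, 40 had a positive average change, and the median was 0.28. Over all 9121 tested genes, 2.18% rose and 2.04% fell, 4745 had a positive average change, and the median was 0.02. The members that rose were Isg20, Dhx58, Ifit1, Zbp1, Gbp4, Gbp2 and Psmb9, of which Gbp4 and Gbp2 were named after their values were seen. Isg20, an interferon-induced RNA exonuclease, had the largest average rise of the genes named. It held 23.3, 12.8 and 29.6 CPM in TH2 Itgav-KO, against 5.52, 0.568 and 5.37 CPM in TH2 control libraries, and 182, 208 and 178 CPM in TH1 Itgav-KO, against 40.5, 29.7 and 54.6 CPM in TH1 control libraries. No KO library overlapped its controls, and the rise was close in TH2 (2.43) and TH1 cells (2.20; average 2.31 ± 0.32 SE, adjusted p = 0.000178). Gbp2, an interferon-induced GTPase, held 81.4, 86.7 and 59.0 CPM in TH2 Itgav-KO, against 22.2, 28.6 and 34.8 CPM in TH2 control libraries, and 487, 408 and 363 CPM in TH1 Itgav-KO, against 391, 306 and 532 CPM in TH1 control libraries (average 0.72 ± 0.15 SE, adjusted p = 0.00978). Its groups overlapped in TH1 and not in TH2 cells. Ifit1, which binds viral RNA ends, held 10.9, 12.6 and 6.61 CPM in TH2 Itgav-KO, against 1.38, 0 and 3.18 CPM in TH2 control libraries, and 49.1, 28.3 and 37.2 CPM in TH1 Itgav-KO, against 20.1, 13.4 and 32.4 CPM in TH1 control libraries (average 1.57 ± 0.36 SE, adjusted p = 0.017), with overlap in TH1 cells.

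Several transcription factors and core targets of the same pathway were not called: Stat2 changed by −0.17, Irf1 by 0.07, Irf7 by 0.54 and Isg15 by 0.44. The summed list was 4442 to 4554 CPM in TH2 Itgav-KO, against 3621 to 3872 CPM in TH2 control libraries, and 10020 to 11470 CPM in TH1 Itgav-KO, against 8437 to 10380 CPM in TH1 control libraries, so that the sums overlapped in TH1. Several of these calls were not stable to single libraries. Zbp1 was lost without any 1 of 9 (adjusted p up to 0.101), Dhx58 without any 1 of 5 (up to 0.0776) and Ifit1 without TH1 control 2 or TH1 Itgav-KO 3 (up to 0.0626), and 4 members were called without either of the last 2 libraries.

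The core of the interferon-stimulated response element (GAAA, any 2 bases, GAAA, searched on both strands) lay before 236 of 7423 tested genes (3.18%). It lay before 2 of the 4 called interferon genes with a promoter on hand, Ifit1 and Gbp2, and before 12 of 33 that were not called (36.4%). The stretches with the matches in capitals are shown for the called genes.
Ifit1, chr19:34640770-34640828, plus strand: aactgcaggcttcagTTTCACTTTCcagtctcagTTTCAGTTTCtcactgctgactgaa
Gbp2, chr3:142620589-142620628, plus strand: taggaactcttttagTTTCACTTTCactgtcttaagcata
Ifit1 holds 2 matches in this stretch and Gbp2 holds 1.

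Antigen-presentation genes had mostly positive changes as well. H2-Ab1, the β chain of the MHC class II molecule I-A, held 157, 182 and 212 CPM in TH2 Itgav-KO, against 56.7, 91.6 and 75.6 CPM in TH2 control libraries, and 69.0, 89.6 and 73.4 CPM in TH1 Itgav-KO, against 51.9, 31.6 and 40.6 CPM in TH1 control libraries, with every KO library above its controls (average 1.11 ± 0.16 SE, adjusted p = 0.000382). It was the only 1 of 6 tested class II genes to be called, and Cd74, H2-Oa and Ctss were at 0.70, 0.83 and 0.48. Without TH2 control 1, 3 of them were called. Summed class II levels were 512 to 577 CPM in TH2 Itgav-KO, against 297 to 319 CPM in TH2 control libraries, and 312 to 333 CPM in TH1 Itgav-KO, against 228 to 256 CPM in TH1 control libraries. Class II genes are also high in B cells, whose markers summed to 9.42 to 12.5 CPM in TH2 Itgav-KO, against 4.54 to 7.34 CPM in TH2 control libraries, and to 0.810 to 2.24 CPM in TH1 Itgav-KO, against 0 to 5.18 CPM in TH1 control libraries, with Blk at 0 in all 12. They are high in myeloid and dendritic cells too, whose 14 markers summed to 20.3 to 38.5 CPM in TH2 Itgav-KO, against 13.4 to 38.2 CPM in TH2 control libraries, and 6.92 to 22.4 CPM in TH1 Itgav-KO, against 6.26 to 12.9 CPM in TH1 control libraries, with Lyz1, Lyz2, Siglech and Tyrobp at 0 in all 12. The part of these cells in the result was not tested. Of 16 class I genes, 15 had a positive average change and 2 rose, Psmb9 (0.52 ± 0.11 SE, adjusted p = 0.0122) and H2-Q6 (1.11 ± 0.31 SE, adjusted p = 0.0436). H2-Q6 is a member of a family of near-identical copies, and its call was lost without any 1 of 10 libraries (up to 0.135). Of all 9121 tested genes, 4.22% were called, 2.18% rose and 4745 had a positive average change.

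**Figure D3:**
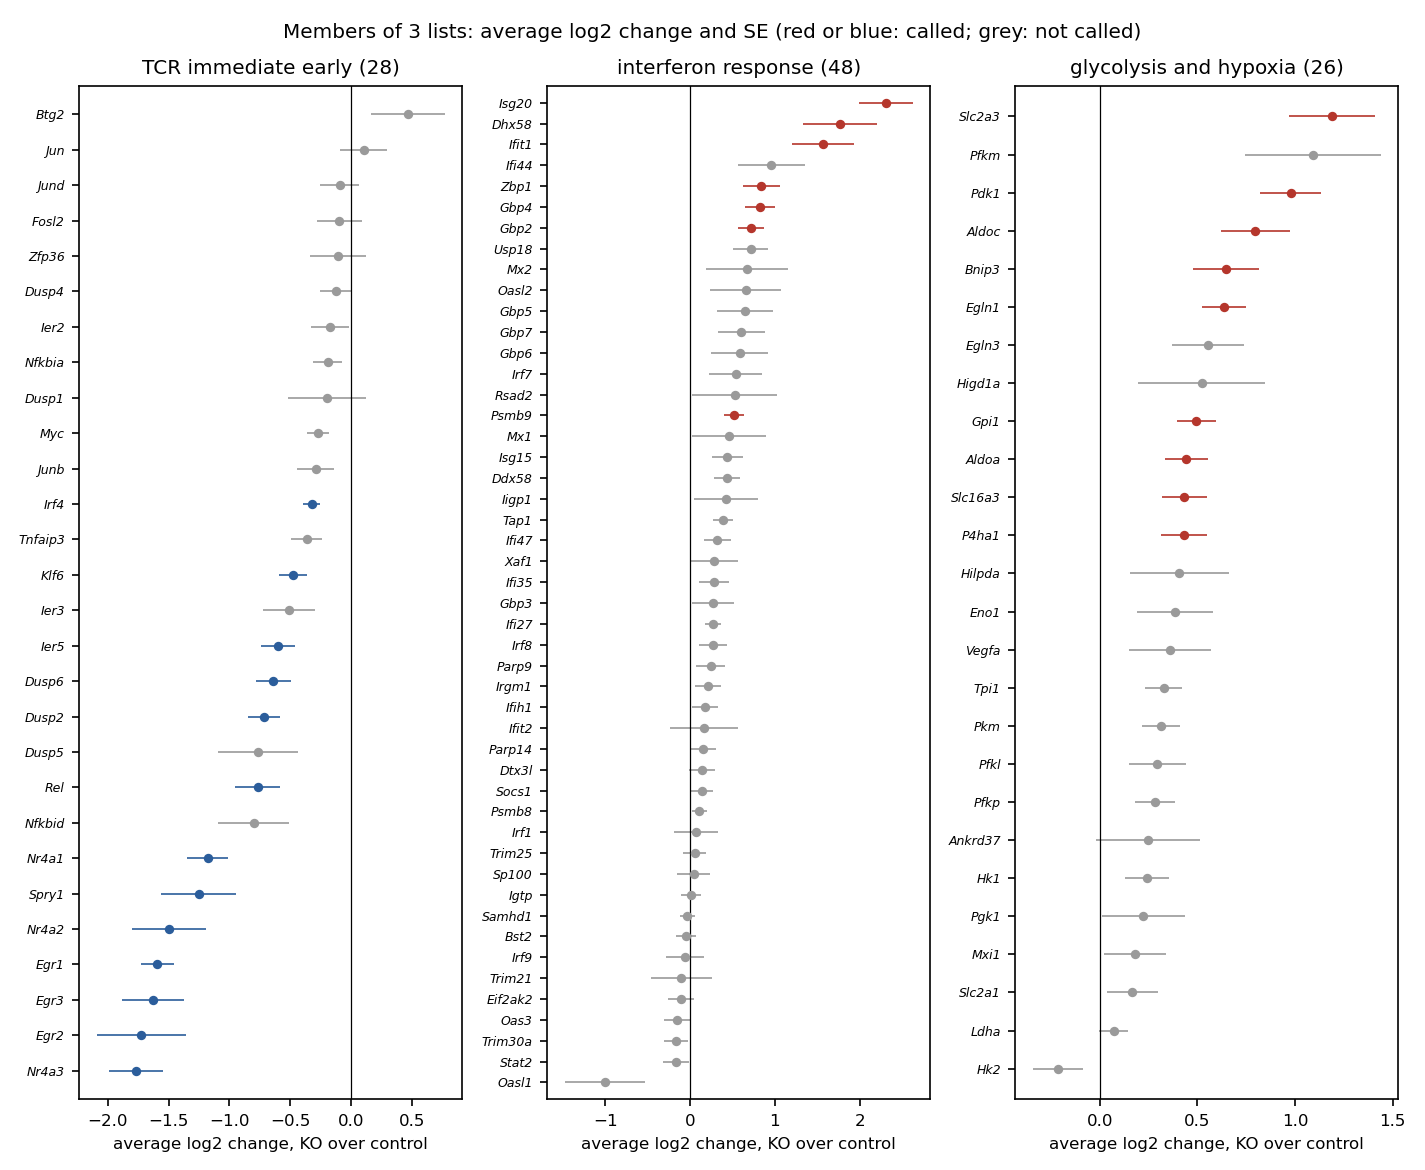
Average log2 change (Itgav-KO over control, horizontal axis) of the tested members of 3 lists, with its SE (1 grey interferon gene is not drawn). Red and blue members were called higher and lower, grey members were not called. In the immediate early list 13 of 28 are blue, in the interferon list 7 are red, and in the glycolysis and hypoxia list 9 of 26 are red.

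Genes of glycolysis and the hypoxia response held more rises than any other list. Of 26 tested, 9 rose and none fell, 25 had a positive average change (all but Hk2), and the median was 0.40 (0.44 in TH2, 0.38 in TH1). Of all 9121 tested genes, 2.18% rose, 2.04% fell and 4745 had a positive average change, with a median of 0.02. Slc2a3, the glucose transporter GLUT3, held 482, 477 and 283 CPM in TH2 Itgav-KO, against 193, 131 and 254 CPM in TH2 control libraries, and 89.5, 150.1 and 177 CPM in TH1 Itgav-KO, against 79.9, 65.6 and 31.5 CPM in TH1 control libraries. Its libraries did not overlap, although those of TH2 were scattered (average 1.19 ± 0.22 SE, adjusted p = 0.00342). Pdk1, the kinase that keeps pyruvate out of the mitochondrial cycle, held 136, 101 and 129 CPM in TH2 Itgav-KO, against 45.6, 63.8 and 76.1 CPM in TH2 control libraries, and 103, 120.1 and 132 CPM in TH1 Itgav-KO, against 61.3, 71.7 and 48.2 CPM in TH1 control libraries. It rose by close amounts in TH2 (0.98) and TH1 cells (0.97; average 0.98 ± 0.16 SE, adjusted p = 0.000911). The other calls were Aldoc (0.80), Bnip3 (0.65), Egln1 (0.64), Gpi1 (0.49), Aldoa, Slc16a3 and P4ha1, of which Egln1 and Gpi1 were named after their values were seen. Bnip3 was lost without any 1 of 7 libraries (adjusted p up to 0.0968) and Aldoc without TH1 Itgav-KO 3 (0.0524). Ldha (0.07), Hk2 (−0.22) and Slc2a1 (GLUT1, 0.17) were not called. Of 28 respiratory chain subunits, 0 were called in limma, with 2 of 28 at an unadjusted p below 0.05 and a median of −0.02, and Atp5b changed by −0.23 (adjusted p = 0.0843). The glycolysis count was 15 when TH2 control 2 and TH2 Itgav-KO 3, 2 of the 3 libraries that lay apart, were both left out. It was 9 without TH2 control 1, the other library that lay apart. It was 4 without TH1 Itgav-KO 3 and 5 without TH1 control 2, TH1 control 3 or TH1 Itgav-KO 2. Without limma's variance trend it was 1.

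**Figure D4:**
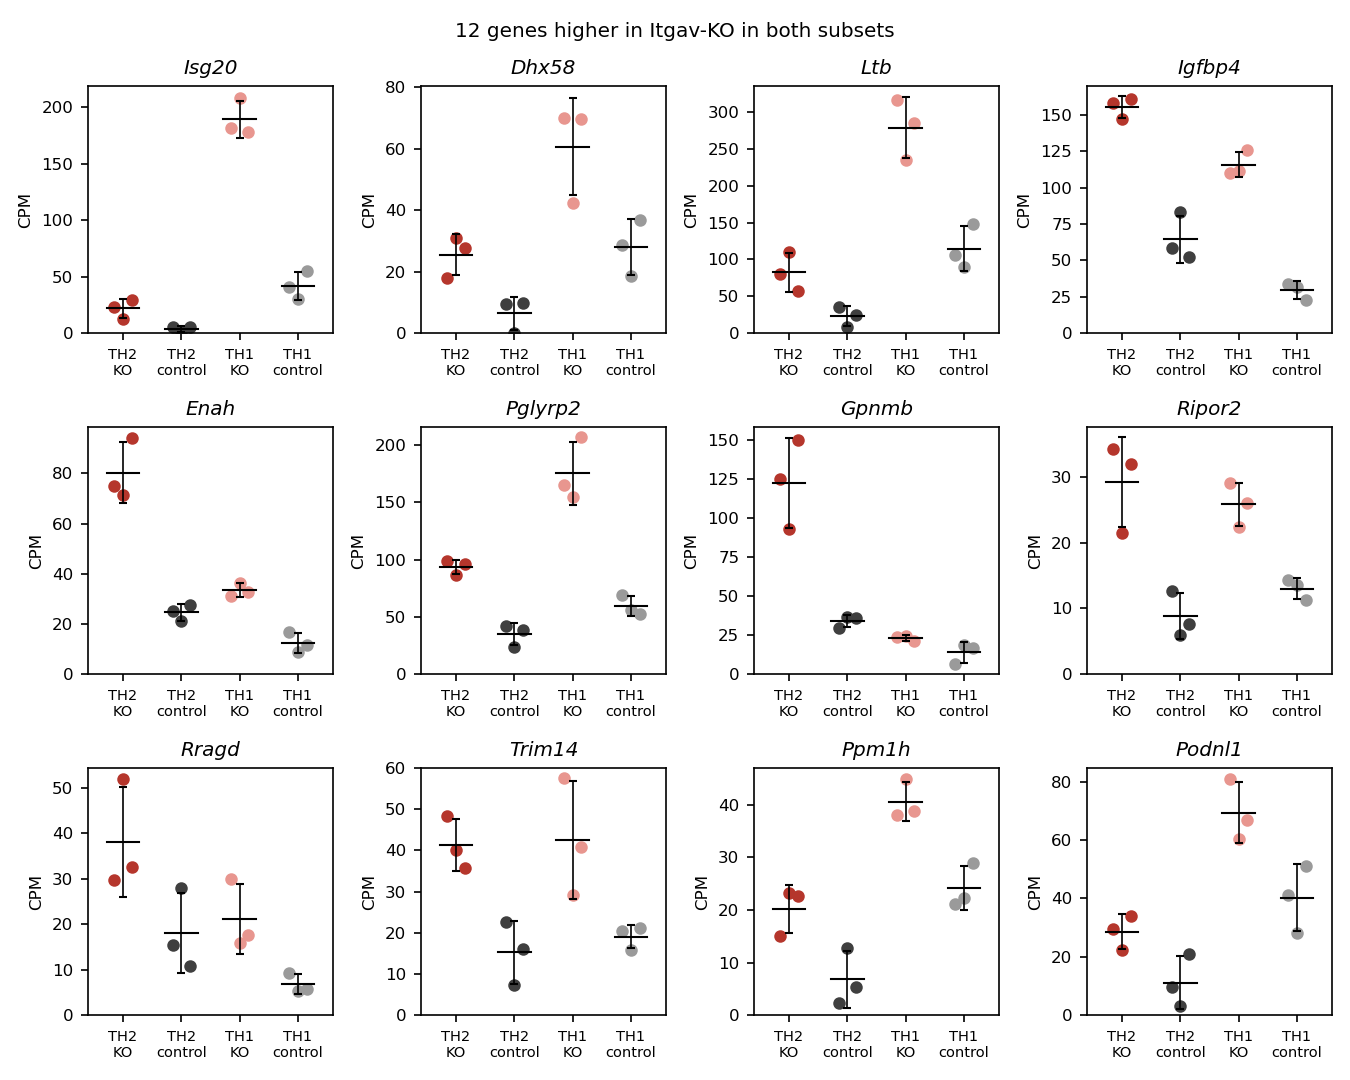
CPM of the 12 genes with the largest average rises among alike genes that averaged 20 CPM or more in the higher genotype of both subsets. Points are libraries (3 per group), horizontal bars group means and vertical bars SD, and each axis starts at 0. Igfbp4 lay between 110.2 and 161 CPM in Itgav-KO libraries of either subset, against 22.5 to 83.0 CPM in control libraries.

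Outside these lists the largest rises were of diverse function. Igfbp4, a binding protein of insulin-like growth factors, held 159, 147 and 161 CPM in TH2 Itgav-KO, against 58.6, 83.0 and 52.1 CPM in TH2 control libraries. In TH1 cells it held 110.2, 112 and 126 CPM in TH1 Itgav-KO, against 34.0, 31.7 and 22.5 CPM in TH1 control libraries. The average rise was 1.62 ± 0.15 SE (adjusted p = 1.34e-06), the smallest adjusted p of the rises named. Enah (Mena), which extends actin filaments at the leading edge of cells, held 75.0, 71.6 and 94.2 CPM in TH2 Itgav-KO, against 25.0, 21.1 and 27.6 CPM in TH2 control libraries, and 31.1, 36.5 and 32.5 CPM in TH1 Itgav-KO, against 16.6, 8.71 and 11.7 CPM in TH1 control libraries. Its KO libraries were all above the control libraries of their subset (average 1.54 ± 0.21 SE, adjusted p = 0.000178). Pglyrp2, an amidase that cleaves bacterial peptidoglycan, held 98.8, 86.5 and 95.7 CPM in TH2 Itgav-KO, against 42.2, 23.6 and 38.9 CPM in TH2 control libraries, and 165, 154 and 207 CPM in TH1 Itgav-KO, against 69.2, 56.0 and 52.7 CPM in TH1 control libraries, and rose by close amounts in TH2 (1.44) and TH1 cells (1.55).

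Ltb, the membrane-bound lymphotoxin chain, held 80.0, 110.0 and 57.6 CPM in TH2 Itgav-KO, against 35.2, 8.52 and 24.7 CPM in TH2 control libraries, and 316, 234 and 285 CPM in TH1 Itgav-KO, against 106, 89.7 and 148 CPM in TH1 control libraries (average 1.63 ± 0.25 SE, adjusted p = 0.000505). All KO libraries were above their controls. Its neighbour and partner chain Lta rose in the average (0.46, adjusted p = 0.0235), but did so in TH2 (1.07) and not in TH1 cells (−0.15), a difference that was called (adjusted p = 0.023), and its average call was lost without any 1 of 4 TH1 libraries (up to 0.0752). Rragd, a Rag GTPase that brings mTORC1 to the lysosome, held 29.7, 52.0 and 32.6 CPM in TH2 Itgav-KO, against 15.4, 27.9 and 10.8 CPM in TH2 control libraries, and 30.0, 15.8 and 17.5 CPM in TH1 Itgav-KO, against 9.31, 5.33 and 5.81 CPM in TH1 control libraries. Its groups were apart by a small margin in TH2 (average 1.29 ± 0.29 SE, adjusted p = 0.0145). Gpnmb, a transmembrane glycoprotein, rose by 1.31, Ripor2, an inhibitor of RhoA, by 1.30 and Trim14, an adaptor of antiviral signalling, by 1.28. Ppm1h, a protein phosphatase, and Podnl1, a leucine-rich proteoglycan, rose by 1.20 each, and these calls were lost without any 1 of 5 and 7 libraries (adjusted p up to 0.0723 and 0.0994). Arl4c, a small GTPase, held 140.3, 191 and 155 CPM in TH2 Itgav-KO, against 91.8, 105 and 84.2 CPM in TH2 control libraries, and 247, 294 and 254 CPM in TH1 Itgav-KO, against 141, 138 and 169.5 CPM in TH1 control libraries (average 0.80 ± 0.12 SE, adjusted p = 0.000382), and Ndufv3, a complex I subunit that was not in the respiratory list, rose by 0.57 (adjusted p = 0.000382).

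Of 8 genes in the TH2 cytokine list, Csf2, Il13 and Il5 fell and none rose. Among all tested genes, 2.04% fell and 2.18% rose. Il13 and Il5 did not exceed 3.88 and 0.225 CPM in any TH1 library, and their average falls of 1.31 and 1.19 rest mostly on TH2 cells (−2.09 and −2.37, against −0.52 and −0.01 in TH1 cells). The average call of Il5 was lost without any 1 of 5 libraries (adjusted p up to 0.0678), and that of Il13 without TH2 control 2 and TH2 Itgav-KO 3 together. Il4 was not called (−0.24, adjusted p = 0.711). Ifng was lower in every TH1 Itgav-KO library (4288, 4573 and 4708 CPM, against 8190, 9985 and 9733 CPM in TH1 controls), but it was not called in TH1 (−1.04, adjusted p = 0.460) or in the average (−0.95, adjusted p = 0.122). In TH2 cells Ifng held 1.65 to 3.94 CPM in Itgav-KO libraries and 2.65, 23.3 and 1.75 CPM in control libraries. The fit shares a single spread among the 4 groups (SE 0.474 in each subset), so this TH2 scatter enters the TH1 test. The average change of Ifng was called under 4 of 27 alternatives in limma (lowest adjusted p = 0.0246), among them without TH2 control 1 or TH2 control 3.

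Master regulators of either fate were not called: Gata3 changed by 0.28 (adjusted p = 0.346) and Tbx21 by −0.50 (adjusted p = 0.653). Gata3 held 773, 660.3 and 699 CPM in TH2 Itgav-KO, against 768, 831 and 761 CPM in TH2 control libraries, and 16.0, 28.5 and 21.7 CPM in TH1 Itgav-KO, against 14.2, 9.31 and 15.8 CPM in TH1 control libraries, so that it overlapped in TH2 and was higher in every TH1 Itgav-KO library. Tbx21 held 158, 177 and 161 CPM in TH1 Itgav-KO, against 220.3, 253 and 272 CPM in TH1 control libraries, lower in every KO library, and 0 to 11.7 CPM in TH2 Itgav-KO, against 0.454 to 7.21 CPM in TH2 control libraries. Neither gene was called within TH1. For Tbx21, as for Ifng, the shared spread (SE 0.688 in each subset) brings the scatter of the TH2 libraries into the TH1 test. Tbx21 was called in the average by limma without TH2 control 2 and TH2 Itgav-KO 3 together (adjusted p = 0.0027). Of 11 TH2 identity genes, Ccr4 and Pparg rose, beside 2.18% of all tested genes. Ccr4, a chemokine receptor of TH2 cells, held 363, 268 and 266 CPM in TH2 Itgav-KO, against 245, 181 and 198 CPM in TH2 control libraries, and 34.0, 43.9 and 30.8 CPM in TH1 Itgav-KO, against 15.04, 11.3 and 18.6 CPM in TH1 control libraries (average 0.88 ± 0.16 SE, adjusted p = 0.00342), with no overlap in either subset. Pparg, a lipid-sensing nuclear receptor, rose in the average (0.95 ± 0.17 SE, adjusted p = 0.00342) and was apart in TH1 cells, with 30.5, 17.6 and 31.5 CPM in TH1 Itgav-KO, against 8.92, 6.69 and 7.14 CPM in TH1 control libraries, and overlapped in TH2 cells. Of 17 TH1 identity genes 2 rose, Runx3 and Lta, beside 2.18% of all tested genes, and 1 fell, Bhlhe40, beside 2.04%. The call of Bhlhe40 (adjusted p = 0.0436) did not hold without any 1 of 10 libraries (up to 0.115). Runx3 was 209.8% of the control mean in TH2 and 100.5% in TH1 cells, and its call was lost without any 1 of 8 libraries (adjusted p up to 0.0973). The chemokine gene Ccl4 was lower in every TH1 Itgav-KO library (56.1, 54.3 and 62.0 CPM in TH1 Itgav-KO, against 188, 206 and 188 CPM in TH1 controls) and was at 7.15 CPM or less in all TH2 libraries. Its average fall (−0.26 in TH2 and −1.74 in TH1 cells, adjusted p = 0.0406) did not hold without any 1 of 8 libraries (up to 0.124).

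Among other integrin chains, Itgb3 and Itgb7 rose and 8 of the 11 tested, Itgav apart, were not called. Itgb3, the usual partner of αv, held 182, 176 and 229 CPM in TH2 Itgav-KO, against 135, 64.7 and 85.0 CPM in TH2 control libraries, and 15.6, 13.0 and 23.1 CPM in TH1 Itgav-KO, against 9.69, 13.9 and 7.67 CPM in TH1 control libraries (average 0.88 ± 0.22 SE, adjusted p = 0.0235). TH2 libraries were apart, and TH1 libraries overlapped. Itgb7, the β chain of gut-homing integrins, rose by 0.54 (adjusted p = 0.0204). Each call was lost without any 1 of 4 libraries (adjusted p up to 0.0769 for Itgb3 and 0.0732 for Itgb7). Of 17 integrin adaptors, among them talin (Tln1, −0.03), kindlin-3 (Fermt3, 0.18) and focal adhesion kinase (Ptk2, −0.47), 1 was called, beside 4.22% of all tested genes. This was Skap1 (0.45 ± 0.11 SE, adjusted p = 0.0204), an adaptor for integrin activation by the TCR. It held 181, 212 and 223 CPM in TH2 Itgav-KO, against 176, 169.7 and 176 CPM in TH2 control libraries, and 154, 161 and 182 CPM in TH1 Itgav-KO, against 107, 100 and 106 CPM in TH1 control libraries, and its call was lost without TH1 control 2 or TH1 Itgav-KO 3 (adjusted p up to 0.0676). Of 6 RGD-bearing ligands of αvβ3, Spp1 (osteopontin) fell in the average (−1.70 ± 0.26 SE, adjusted p = 0.000515) and was apart in TH2 cells, with 3.51, 5.52 and 7.58 CPM in TH2 Itgav-KO, against 23.3, 85.8 and 54.2 CPM in TH2 control libraries, and overlapped in TH1 cells, while Thy1 was not called (0.18, adjusted p = 0.181). Egfr, the epidermal growth factor receptor, fell by 1.42 (adjusted p = 0.0288), a call lost without any 1 of 8 libraries (up to 0.0812). TH2 libraries of Egfr were apart, with group means of 55.7 CPM in Itgav-KO and 150.3 CPM in control. In TH1 cells it was low and overlapped, with 7.19, 0.101 and 0.805 CPM in Itgav-KO, against 7.39, 6.39 and 4.32 CPM in control libraries. Neither subset alone was called by limma (adjusted p = 0.139 in TH2 and 0.248 in TH1). Of 15 TGF-β genes 1 was called, beside the same 4.22% of all tested genes. It was Lrrc32, which displays latent TGF-β (1.25 ± 0.32 SE, adjusted p = 0.0295), and its call was lost without any 1 of 7 libraries (up to 0.0876).

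Survival genes of the Bcl2 family moved in opposite directions. Bcl2 held 1033, 1003 and 964 CPM in TH2 Itgav-KO, against 836, 591 and 763 CPM in TH2 control libraries, and 1002, 1056 and 1154 CPM in TH1 Itgav-KO, against 974, 773 and 861 CPM in TH1 control libraries, and rose in the average (0.39 ± 0.09 SE, adjusted p = 0.0201), a call lost without TH1 control 2 or TH1 Itgav-KO 3 (adjusted p up to 0.0712). Bcl2l1 (BCL-XL) held 89.4, 109 and 80.0 CPM in TH2 Itgav-KO, against 218, 223 and 204 CPM in TH2 control libraries, and 142, 182 and 169.9 CPM in TH1 Itgav-KO, against 201.2, 211 and 199.6 CPM in TH1 control libraries, and fell (−0.76 ± 0.11 SE, adjusted p = 0.000382), and Bcl2a1b fell by 0.99 (adjusted p = 0.00663), although its reads are uncertain because near-identical Bcl2a1 copies exist. The other 9 of 12 members tested were not called. Among all tested genes, 4.22% were called.

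Of 23 ribosome biogenesis genes 6 fell and none rose, with a median of −0.36 (−0.55 in TH2, −0.20 in TH1). Among all tested genes, 2.04% fell and 2.18% rose. These shares also stand beside the counts of chaperones and p53 targets that follow. Ncl (nucleolin) held 3101, 3303 and 2746 CPM in TH2 Itgav-KO, against 4432, 4894 and 4361 CPM in TH2 control libraries, and 2709, 2479.8 and 2320.4 CPM in TH1 Itgav-KO, against 3456, 3088 and 3287 CPM in TH1 control libraries, and fell by 0.49 ± 0.07 SE (adjusted p = 0.000507). Every KO library was below its controls. Heatr1, Ddx21, Nop58, Nolc1 and Npm1 fell by 0.38 to 0.65, of which Nop58 was lost without any 1 of 8 libraries (adjusted p up to 0.0884) and Ddx21 without TH1 control 2 or TH1 Itgav-KO 2 (up to 0.0675). The count was 3 without TH1 control 2 and 10 without TH2 control 1, the library with the high Rn45s. Rn45s itself was not called (−0.55, adjusted p = 0.133). Of 18 chaperones (median −0.25) 5 fell, by 0.28 to 0.51, and no call among them was stable to the libraries left out: the count was 0 without TH1 control 2, TH1 control 3, TH1 Itgav-KO 2, TH1 Itgav-KO 3 or TH2 control 2, 2 without TH1 control 1, TH2 control 1, TH2 Itgav-KO 1 or TH2 Itgav-KO 3, and 3 without TH2 control 3. Of 16 p53 targets, Ccng1 (−0.50 ± 0.08 SE, adjusted p = 0.000515) and Zmat3 (−0.53 ± 0.11 SE, adjusted p = 0.0114) fell, both with no overlap in either subset.

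Proliferation genes had no common direction. Of 26 replication genes and 29 mitosis genes none was called in the average by limma (3 and 5 had an unadjusted p below 0.05), and no replication gene was called under any alternative that was run, while 1 mitosis gene was called without TH2 control 1. The median of the replication list was −0.38 in TH2 and 0.29 in TH1 cells, and that of the mitosis list −0.42 and 0.24, and the medians of the average change were −0.02 and −0.08. Mki67 held 2310.1, 1815 and 1806 CPM in TH2 Itgav-KO, against 2184, 2564 and 2669 CPM in TH2 control libraries, and 2282, 1472 and 1597 CPM in TH1 Itgav-KO, against 1747, 1604 and 1609.8 CPM in TH1 control libraries, and the groups overlapped in both subsets. Of 28 sterol and fatty acid synthesis genes 0 were called by limma (1 at an unadjusted p below 0.05, median −0.05). Of 21 amino acid supply genes 1 was called, Ddit3 (0.66), beside 4.22% of all tested genes. The call of Ddit3 was lost without TH1 Itgav-KO 2 (adjusted p = 0.0501).

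Calls in the remaining lists are given beside the 4.22% of all tested genes that were called. Of 8 cytotoxic granule genes Srgn and Nkg7 fell, of 5 chemokine genes Ltb rose and Ccl4 fell, of 12 homing receptor genes Ccr4 rose, and of 15 naive and memory regulators Bcl2 rose. Of 16 targets of IL-2 and STAT5 signalling, Socs2 (0.55) and Bcl2 rose and Bcl2l1 and Il2ra fell. The call of Socs2 was lost without TH1 control 2 or TH1 Itgav-KO 2 (adjusted p up to 0.0644), and the list held 1 call without TH1 control 2 and 2 without TH1 Itgav-KO 2 or TH1 Itgav-KO 3. Of 13 snoRNA host genes, Snhg16 (1.20), Snhg12 (0.62) and Snhg1 (0.54) rose, with overlap in TH1 cells. The call of Snhg16, whose change was 2.33 in TH2 and 0.06 in TH1 cells, was lost without any 1 of 11 libraries (adjusted p up to 0.108). Among marker lists of other helper fates, 2 of 4 TFH genes fell (Il21 and Pdcd1), 2 of 6 Treg genes fell (Ctla4 and Il2ra) and 2 rose (Lrrc32 and Tnfrsf18), and 0 of 3 TH17 genes were called by limma (0 at an unadjusted p below 0.05). None of the 3 tested NK and CD8 T cell markers, of the 3 tested indicators of RNA quality or of the 1 tested myeloid marker (Cd68) was called by limma, with 0, 1 and 0 at an unadjusted p below 0.05, and no B cell, mast cell or erythroid marker passed the filter.

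**Figure D5:**
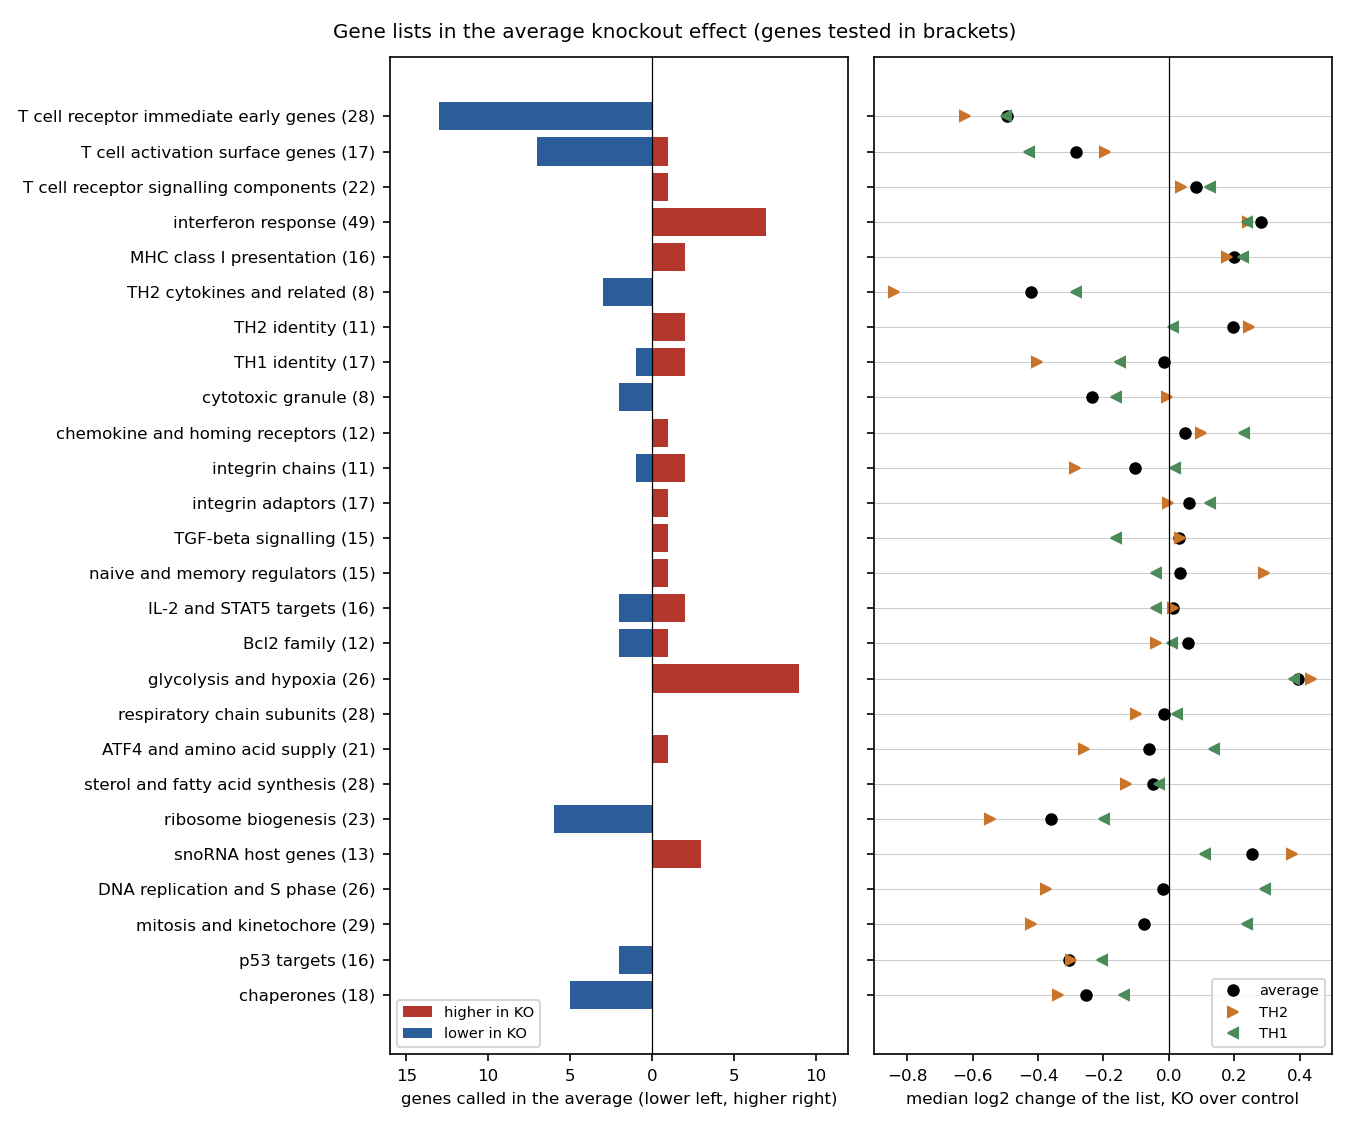
Gene lists with at least 8 tested members. The left panel counts the members called lower (blue, to the left) and higher (red, to the right) in the average, and the right panel gives the median log2 change of the list, Itgav-KO over control, in the average and in each subset. Immediate early genes have 13 lower and glycolysis and hypoxia genes 9 higher, and the replication and mitosis medians lie on opposite sides of 0 in TH2 and TH1 cells.

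Genes that lie close to Itgav were counted separately, since they are inherited together with the floxed allele. Within 20 Mb on chromosome 2, 7 of 100 tested genes were called (7%, Itgav apart), 6 lower and 1 higher, beside 370 of 8851 other placed genes (4.18%). They were Calcrl, Cers6, Cd44, Galnt3, Nckap1 and Ptprj, which fell, and Pdk1, which rose and lies 11.9 Mb before Itgav. Nckap1 was named after its values were seen. The closest, Calcrl, 0.612 Mb beyond Itgav, encodes a receptor of calcitonin-related peptides and held 101, 137 and 141 CPM in TH2 Itgav-KO, against 366, 358 and 369.6 CPM in TH2 control libraries, and 8.10, 23.3 and 14.9 CPM in TH1 Itgav-KO, against 19.5, 21.5 and 23.1 CPM in TH1 control libraries. It fell in the average (−1.05 ± 0.19 SE, adjusted p = 0.00365) with overlap in TH1 cells. The calls of Galnt3, Ptprj and Cers6 were lost without any 1 of 8, 7 and 3 libraries (adjusted p up to 0.128, 0.0994 and 0.0867). The part of linkage in these calls was not tested.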

How the data were processed

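RNA of sorted CD4+ cells was amplified and sequenced by the authors as 50-base single reads. Per the study's methods, reads were trimmed with Trim Galore 0.50 and aligned to GRCm38 with STAR 2.6.0a, and the authors used DESeq2 1.18.1 for their own comparisons. For the gene counter, its annotation and its use of strand, the answer is not given in the sources used here. CPM values were deposited, scaled to each library's total in genes, and the 0.0001 that the authors had added to every value was subtracted. A further 12 per-sample columns, numbered without titles, were not used.

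Genes with 10 CPM or more in at least 3 of 12 libraries were tested on log2(CPM + 1), a pseudocount of 1 that understates changes of low genes, with limma 3.58.1 in R 4.3.3. A fit of 4 group means with a variance trend (8 residual and 12.5 prior degrees of freedom) gave the average, the TH2 and TH1 effects and their difference, each two-sided with Benjamini-Hochberg adjustment over all genes tested and a threshold of 0.05. Low CPM values fell on whole reads within 0.1, which gave the depth and the floor of 3 reads, and covers counting error only. The procedure was tested on simulated data.

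Members and the 38 gene lists were chosen with earlier results of these data known. The genes named are a fixed set around Itgav and T helper fate, the largest rises and falls among alike genes that averaged 20 CPM or more in the higher genotype of both subsets (predicted genes, pseudogenes and receptor segments left out), up to 4 called members of each list (or its 2 most abundant where none was called), up to 6 called genes whose effects differ most between subsets, and the 5 largest called changes within 20 Mb of Itgav. Positions of 107 of 110 named genes (97.3%) came from the GRCm38 annotation, and promoters from RefSeq (GRCm38.p6). Alternatives were the pseudocount, the filter, TMM and quantile scaling, no variance trend, an additive model, the replicate number as a block, library weights, Rn45s left out, and single libraries or TH2 control 2 and TH2 Itgav-KO 3 left out. Count tests were not run. Values of 1 member of the interferon list are not reported here.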

Additional observations from a re-analysis of the deposited data

Results flagged for a closer look

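The effects of the knockout differed between TH2 and TH1 cells, by limma's test of the difference (TH2 minus TH1, log2 scale, n = 3 libraries a group), for 8 of the genes named. The difference was −1.57 for Egr1, an immediate early factor that fell in both subsets (−2.38 in TH2 and −0.81 in TH1; adjusted p = 0.0214). It was 1.22 for Lta, a lymphotoxin chain (1.07 in TH2 and −0.15 in TH1; adjusted p = 0.023), −2.53 for Nkg7, a granule membrane protein (−2.77 in TH2 and −0.24 in TH1; adjusted p = 0.0245) and −2.51 for Spp1, osteopontin (−2.95 in TH2 and −0.44 in TH1; adjusted p = 0.0339). B3galt2, a galactosyltransferase, differed by −2.84 (−3.52 in TH2 and −0.68 in TH1; adjusted p = 0.0458). Pth, parathyroid hormone, differed by −2.36 (adjusted p = 0.023) and was present in TH2 cells alone, with 427, 258 and 356 CPM in TH2 Itgav-KO, against 1296, 2079 and 1949 CPM in TH2 control libraries, and no more than 0.376 CPM in any TH1 library.

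For the other 2 the change lay in TH1 cells. Slamf6, a receptor of the SLAM family, differed by −3.25 (−0.27 in TH2 and 2.98 in TH1; adjusted p = 0.0326), with 68.8, 67.4 and 81.8 CPM in TH1 Itgav-KO, against 8.41, 4.43 and 14.9 CPM in TH1 control libraries. Aqp9, a channel for water and glycerol, differed by −2.44 (−0.10 in TH2 and 2.34 in TH1; adjusted p = 0.0339), with 17.2, 30.1 and 22.3 CPM in TH1 Itgav-KO, against 4.84, 3.16 and 3.17 CPM in TH1 control libraries. The number of genes that passed the test of the difference was 37, but it was 2 without TH1 control 1, 3 without TH1 control 2 and 4 without TH1 Itgav-KO 3.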

How the results depend on the processing

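Of 89 called named genes, 37 stayed called under every alternative run, 53 whichever library was left out, and none changed direction. Of 21 named genes that were not called, 5 were called under at least 1 alternative. The 385 called genes became 603 with library weights, 141 with no filter, 130 without limma's variance trend and 179 to 432 with 1 library left out. The 214 alike genes became 105 with no filter, 98 without the trend and 126 to 253 with 1 library left out. The TH2 count of 327 became 141 with no filter, 76 without the trend, 153 without TH2 control 2 and TH2 Itgav-KO 3 together, and 158 to 383 with 1 library left out. The TH1 count of 77 became 29 without the trend, 406 with library weights, 198 without those 2 libraries together, and 26 to 124 with 1 library left out. The count for the difference, 37, became 2 with no filter, 62 with a filter of 50 CPM, 1 without the trend, 20 on means of same-numbered libraries, 85 with library weights, and 2 to 50 with 1 library left out. The replicate numbers were not used to pair samples in the main fit. Deviations of same-numbered libraries correlated at −0.0498 to 0.0199 within a genotype and −0.0657 to 0.0256 within a subset. The highest correlation between libraries of different groups, 0.106, joined TH2 control 1 and TH2 Itgav-KO 2, which differ in number. Whether any libraries share a mouse or a culture cannot be told from these values. With the replicate block as a fixed term, 366 genes were called in the average and 17 for the difference, and with the replicate block as a random term 385 and 38. The planned edgeR and DESeq2 alternatives were not run. Depth limited values below 0.225 to 0.473 CPM, and 3 libraries a group limit small effects. The causes of these changes were not tested.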
